A study of Mus musculus with 24 samples.

Results

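The 29 genes described here belong to the oligodendrocyte lineage and to the myelin it makes: 12 myelin structure genes, 5 genes of lipid and metabolic enzymes or transport, 6 transcription factors, 2 precursor surface genes and 4 genes of the stages in between. They were listed by name and looked up in a count table of the mouse dentate gyrus, and 29 of 29 were found among its 26667 genes. Myrf was found under the older symbol Gm98. All 29 passed the filter on low counts, which kept 18286 genes. The 24 RNA-seq libraries came from 5 groups of mice, and each library is described as a separate mouse. WT mice were C57BL6/J without treatment (n = 5). The other 4 groups carried the APP/PS1 transgenes, a model of amyloid deposition, and were APP/PS1 controls with neither treatment (n = 5), APP/PS1 mice given BCI-838 (n = 4), APP/PS1 mice with a running wheel, called exercise here (n = 5), and APP/PS1 mice with drug and wheel, called both here (n = 5). BCI-838, which the body turns into a blocker of the glutamate receptors mGluR2 and mGluR3, was given at 5 mg/kg daily for 1 month, and the wheel was open for 1 month. The design text says that treatment was with drug or vehicle. The sources used here do not give age, sex or the promoters of the transgenes.

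Oligodendrocytes wrap axons in myelin, the lipid-rich sheath that speeds conduction. They arise from precursors that carry the receptor PDGFRA and the proteoglycan NG2, pass through a short-lived premyelinating stage marked by GPR17 and ENPP6, and then switch on myelin genes under SOX10 and MYRF. In the hippocampus precursors are spread evenly, while myelinated fibres are denser in some layers than in others, so a dissected piece of tissue can hold more or less myelin. In whole tissue, fewer cells of a type and less RNA per cell cannot be told apart.

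The promoters of a pair of mature genes and of both precursor surface genes are shown first. The reason is that the mature genes varied together between libraries, and the precursor surface genes varied less than those. RefSeq (build GRCm38.p6) gave promoter windows, 250 bases before to 50 after the start, for 21 of the 29 genes, and some genes had several, 28 windows in all. Each window was searched on both strands for the SOX core (ACAAAG or ACAATG), an E-box bound by OLIG2 (CAGCTG or CATATG) and a MYRF word (CTGGCAC or CTGGTAC). Capitals mark these words on either strand, and the 4 genes were chosen after the matches were seen. Mog is read from the minus strand at chr17:37023349-37023648, Opalin from the minus strand at chr19:41077064-41077363, Pdgfra from the plus strand at chr5:75152001-75152300 and Cspg4 from the plus strand at chr9:56864854-56865153.
Mog: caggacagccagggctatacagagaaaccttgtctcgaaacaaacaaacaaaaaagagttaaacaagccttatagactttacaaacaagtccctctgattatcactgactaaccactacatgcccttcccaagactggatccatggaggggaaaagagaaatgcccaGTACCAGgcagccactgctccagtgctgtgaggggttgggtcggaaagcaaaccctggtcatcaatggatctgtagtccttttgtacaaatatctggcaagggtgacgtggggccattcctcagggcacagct
Opalin: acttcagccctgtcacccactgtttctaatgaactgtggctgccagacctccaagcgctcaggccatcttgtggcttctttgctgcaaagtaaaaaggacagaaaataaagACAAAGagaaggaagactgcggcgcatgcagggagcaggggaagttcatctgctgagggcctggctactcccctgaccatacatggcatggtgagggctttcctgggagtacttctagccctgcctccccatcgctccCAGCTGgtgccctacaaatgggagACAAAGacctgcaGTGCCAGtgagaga
Pdgfra: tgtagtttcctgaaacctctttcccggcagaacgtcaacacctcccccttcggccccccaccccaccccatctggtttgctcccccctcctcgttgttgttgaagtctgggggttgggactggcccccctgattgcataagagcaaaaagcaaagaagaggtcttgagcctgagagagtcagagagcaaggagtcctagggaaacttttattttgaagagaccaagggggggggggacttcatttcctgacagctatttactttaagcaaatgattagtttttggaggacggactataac
Cspg4: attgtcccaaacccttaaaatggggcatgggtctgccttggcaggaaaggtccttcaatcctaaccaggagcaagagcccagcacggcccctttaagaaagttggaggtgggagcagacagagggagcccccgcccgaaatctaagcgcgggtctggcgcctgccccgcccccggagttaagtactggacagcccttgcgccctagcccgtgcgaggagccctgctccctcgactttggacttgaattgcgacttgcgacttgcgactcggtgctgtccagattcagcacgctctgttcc
The Opalin window held 2 SOX core words, 1 E-box and 1 MYRF word, and the Mog window held 1 MYRF word. The Pdgfra and Cspg4 windows held 0 of the 3 kinds. Over all 32851 windows of the table, 28.6% held a SOX core word, 19.8% an E-box word and 7.1% a MYRF word. Among the 28 windows of these genes, 13 held a SOX core word, 6 an E-box word and 6 a MYRF word. These are counts of windows and not of separate genes. For Mag, 2 windows overlap, and each held 1 SOX core word and 1 MYRF word. The MYRF word was in windows of Mog, Opalin, Hapln2, Cnp and Mag. The windows of Cldn11, Mal, Ugt8a, Nkx6-2, Nkx2-2 and Neu4 also held 0 of the 3 kinds, and the Enpp6 window held 1 SOX core word. The 4 printed windows therefore do not stand for their stages. A match describes letters in this window and is no evidence of binding.

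Levels between genes were compared per kilobase of exon, as CPM per kb in WT, where CPM is the usual depth-scaled count, here with library sizes scaled by TMM factors. Mbp, which encodes myelin basic protein that compacts the sheath, was highest at 369 ± 88.8 CPM per kb (SD, n = 5). Cnp, a membrane-bound phosphodiesterase of myelin, followed at 120 ± 19.8 CPM per kb, and Trf, which encodes the iron carrier transferrin, stood at 109 ± 15.3 CPM per kb. Cnp, Trf, Cldn11 and Mal, from 120 to 92.7 CPM per kb, overlapped their neighbours in this order within 1 SD of each mean. The lowest were Cspg4 at 2.14 ± 0.191, Nkx2-2 at 1.74 ± 0.154 and Enpp6 at 1.22 ± 0.242 CPM per kb. Trf shares 63.5% of its exonic length with another annotated gene on the same strand, so its counts are uncertain. In all, 12 of the 29 genes share exonic bases with another gene, 10 with one on the opposite strand, and the sources used here do not say if counting used strand.

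No gene of the 29 was called in any of 7 comparisons at an adjusted p under 0.05 in edgeR's quasi-likelihood test with Benjamini-Hochberg adjustment over all genes tested. At an unadjusted p under 0.05 the count was also 0 of 29 in each comparison, and DESeq2 gave 0 called and 0 unadjusted. Of 22974 genes, DESeq2 called 12 for APP/PS1 control against WT, 169 for BCI-838, 60 for exercise and 79 for both. It called 361 for both against exercise, 256 for both against BCI-838 and 75 for the interaction. Its unadjusted shares ran from 2.74% for APP/PS1 control against WT to 15.5% for both against exercise. With limma voom 0 of the 29 were called. The unadjusted counts were 1 of 29 for exercise beside 11.2% of all genes, and 10 for both against exercise beside 24.2%. They were 3 for both against BCI-838 beside 23.2%, 11 for the interaction beside 15.8%, and 0 for the others. Of 18286 genes, limma voom called 2 for APP/PS1 control against WT, 425 for BCI-838, 989 for both against exercise and 876 for both against BCI-838. For exercise, both and the interaction it called 0. The shares over all genes tested, in edgeR, were as follows. For APP/PS1 control against WT, 0.0109% of genes were called at the adjusted threshold and 2.76% at the unadjusted one. For BCI-838 against control these shares were 0% and 10.2%. For exercise against control they were 0.00547% and 5.44%, and for both against control 0% and 10.6%. For both against exercise they were 0% and 17.6%, for both against BCI-838 0% and 14.3%, and for the drug-by-wheel interaction 0% and 9.6%. The groups overlapped in CPM for every one of the 29 genes in all 6 two-group comparisons. Groups without overlap were found for 0.312% of all genes for genotype, 4.71% for BCI-838, 0.585% for exercise, 1.01% for both, 1.4% for both against exercise and 8.24% for both against BCI-838. Comparisons that share the APP/PS1 controls, or another group, are not independent of each other.

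In untreated mice the question was whether the transgenes changed these genes. The median difference over the 29 genes was -0.02 on the log2 scale, with 10 higher and 19 lower in APP/PS1, beside a median of -0.01 over all genes. Single genes lay between -0.22 and 0.15. With BCI-838 the median was 0.01, with 16 higher and 13 lower, beside 0.00 over all genes. With exercise it was 0.11, with 22 higher and 7 lower, beside 0.01. With both it was -0.06, with 10 higher and 19 lower, beside -0.01. Both against exercise had a median of -0.19, with 4 higher and 25 lower, beside -0.02 over all genes. Both against BCI-838 had a median of -0.07, with 6 higher and 23 lower. The interaction had a median of -0.16, with 1 higher and 28 lower. None of these medians is a test, because the genes vary together from library to library. The median standard error of the 29 genes was 0.30 for genotype, beside 0.15 over all genes, so the 95% intervals of single genes were wide. They reached from -0.999 for Enpp6 to 0.90, the highest upper limit among the 29, for genotype.

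**Figure D1:**
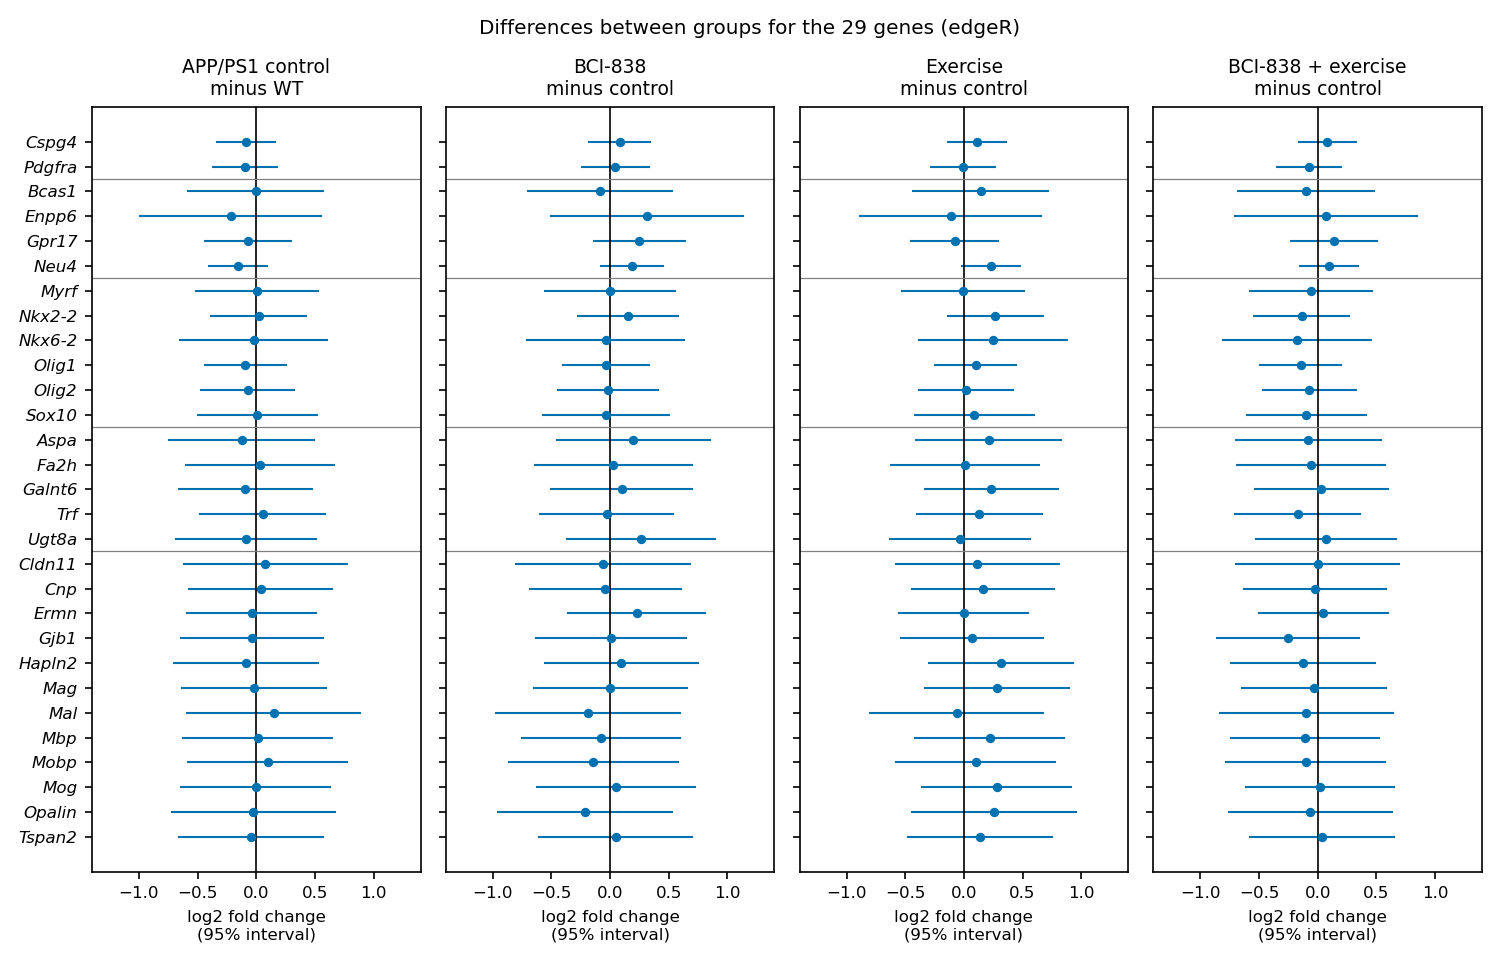
Log2 fold changes of the 29 genes (points) with 95% intervals (lines) from edgeR, for APP/PS1 control minus WT and for each treatment minus APP/PS1 control, with genes grouped by role. Every interval crosses 0, and the intervals of Pdgfra, Cspg4 and Neu4 are among the narrowest.

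The myelin structure genes were described through Mbp and Mog, the markers of mature cells, and through the genes with the smallest p in a comparison. Values per library are given from here on in replicate order within a group. Mbp was at 3255, 3257, 4167, 2855 and 2090.4 CPM in WT and at 3195, 2126, 4679.6, 3543 and 2210.5 CPM in the controls. It was at 2613, 2768, 3266 and 3306 CPM with BCI-838, at 3537, 4331, 2591, 3659.9 and 4242 CPM with exercise and at 1067, 2497, 1885, 5852 and 3319 CPM with both. The group ranges of Mbp overlap, and both the lowest and the highest library belong to the mice with both treatments. Mbp differed by 0.01 (95% interval -0.63 to 0.65) for genotype, -0.08 (-0.76 to 0.61) for BCI-838, 0.22 (-0.42 to 0.86) for exercise and -0.11 (-0.75 to 0.53) for both, on the log2 scale.

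Mog encodes a glycoprotein on the outer face of the sheath. The WT libraries had 78.2, 73.03, 96.00, 67.9 and 55.7 CPM of Mog, and the controls 81.1, 49.9, 107, 79.8 and 51.8 CPM. Mog stood at 62.7, 73.5, 78.3 and 91.8 CPM with BCI-838, 93.3, 85.6, 64.3, 91.05 and 114 CPM with exercise and 26.5, 70.6, 47.9, 155 and 74.5 CPM with both. Mog had the same lowest and highest library as Mbp. Its group means were 74.2 ± 14.8 CPM in WT, 73.9 ± 23.7 in controls, 76.6 ± 12.0 with BCI-838, 89.7 ± 17.9 with exercise and 74.9 ± 48.7 with both (SD, n = 5, or 4 for BCI-838).

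**Figure D2:**
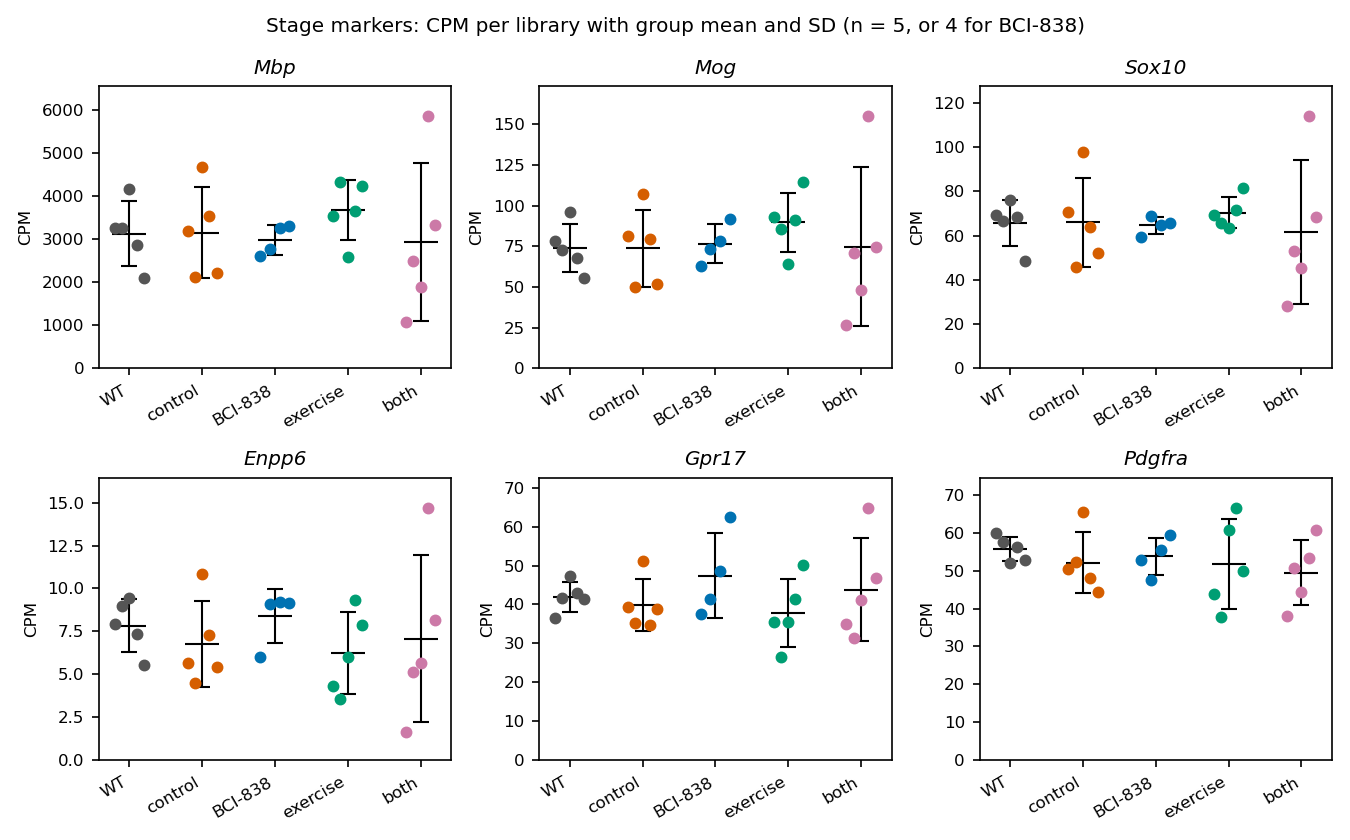
CPM of 6 stage markers in each library (points) with the group mean and SD (black), for WT, APP/PS1 control, BCI-838, exercise and both. For Mbp, Mog, Sox10 and Enpp6 the spread within the mice with both treatments is wider than in any other group, and Pdgfra lies between 37.8 and 66.6 CPM in all libraries.

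Hapln2 encodes a link protein of the matrix at nodes of Ranvier. CPM of Hapln2 was 49.5, 42.4, 47.5, 33.5 and 31.4 in WT and 45.04, 24.7, 53.4, 47.4 and 22.1 in controls. The treated libraries had 35.9, 38.8, 42.7 and 47.5 CPM with BCI-838, 56.05, 64.2, 30.5, 44.9 and 44.8 CPM with exercise and 13.2, 37.98, 26.7, 62.1 and 36.9 CPM with both. Exercise replicate 2 was the highest of all 24 libraries for Hapln2, and both replicate 1 the lowest. Hapln2 differed by 0.32 ± 0.30 (log2, SE) with exercise (edgeR adjusted p = 1.00) and by -0.44 ± 0.30 for both against exercise (edgeR adjusted p = 0.444).

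Mag encodes the myelin-associated glycoprotein on the face toward the axon. Mag was at 244, 236, 275, 208 and 162 CPM in WT and at 231, 145, 322, 256 and 156 CPM in the controls. It was at 192, 215, 229 and 253 CPM with BCI-838, at 261, 249.8, 204, 303 and 331 CPM with exercise and at 82.96, 188, 139, 441 and 233 CPM with both. The exercise libraries 4 and 5 were high, but control replicate 3 lay between them. Mag differed by 0.28 ± 0.30 (log2, SE) with exercise (edgeR adjusted p = 1.00).

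Gjb1 encodes connexin 32, a gap junction protein of myelinating cells. The WT libraries had 21.1, 21.4, 21.1, 16.2 and 12.8 CPM of Gjb1, and the controls 21.2, 13.3, 25.5, 19.3 and 10.9 CPM. Gjb1 stood at 16.1, 17.8, 17.1 and 21.5 CPM with BCI-838, 19.7, 18.8, 16.4, 17.04 and 22.6 CPM with exercise and 5.61, 13.5, 9.77, 29.4 and 17.3 CPM with both. All treated groups overlapped the controls for Gjb1. It differed by -0.25 ± 0.30 (log2, SE) with both treatments (edgeR adjusted p = 0.795) and by -0.26 ± 0.31 for both against BCI-838 (edgeR adjusted p = 0.768).

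Ermn encodes ermin, a cytoskeletal protein of mature oligodendrocytes. CPM of Ermn was 86.1, 88.9, 92.97, 74.6 and 51.99 in WT and 75.9, 52.9, 115, 85.3 and 53.9 in controls. The treated libraries had 75.05, 87.2, 101 and 96.02 CPM with BCI-838, 70.9, 71.6, 71.2, 84.1 and 84.9 CPM with exercise and 38.05, 59.4, 61.1, 155 and 82.8 CPM with both. BCI-838 replicates 3 and 4 were above 4 of the 5 controls and below control replicate 3. Ermn differed by 0.23 ± 0.29 (log2, SE) with BCI-838 (edgeR adjusted p = 0.819). The other myelin structure genes were Mobp, Cnp, Cldn11, Opalin, Mal and Tspan2, whose highest library exceeded the lowest by 4.94-fold for Tspan2 to 7.06-fold for Mal.

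Among the enzymes, Ugt8a makes galactosylceramide, the chief glycolipid of myelin. Ugt8a was at 81.1, 75.5, 76.9, 59.2 and 50.3 CPM in WT and at 63.02, 46.4, 96.7, 72.3 and 43.9 CPM in the controls. It was at 66.2, 65.7, 90.4 and 87.9 CPM with BCI-838, at 51.2, 55.5, 61.2, 78.8 and 68.4 CPM with exercise and at 32.1, 46.1, 50.2, 142 and 67.7 CPM with both. BCI-838 replicates 3 and 4 and control replicate 3 were high, while both replicate 4 was higher than each of them. Ugt8a differed by 0.27 ± 0.31 (log2, SE) with BCI-838 (edgeR adjusted p = 0.805).

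Aspa encodes aspartoacylase, which frees acetate from N-acetylaspartate for lipid synthesis. The WT libraries had 24.9, 25.02, 27.8, 21.2 and 13.4 CPM of Aspa, and the controls 20.5, 14.9, 26.6, 25.9 and 15.2 CPM. Aspa stood at 21.1, 19.8, 24.1 and 29.8 CPM with BCI-838, 21.8, 23.6, 20.7, 26.4 and 26.97 CPM with exercise and 6.81, 15.3, 13.9, 38.9 and 22.4 CPM with both. For Aspa both replicate 1 was lowest and both replicate 4 highest. It differed by -0.28 ± 0.32 (log2, SE) for both against BCI-838 (edgeR adjusted p = 0.749) and by -0.49 ± 0.44 for the interaction (edgeR adjusted p = 0.753). Fa2h, which hydroxylates the fatty acids of myelin sphingolipids, Trf, and Galnt6, a glycosyltransferase, spanned 5.31-fold, 3.95-fold and 4.44-fold between the lowest and highest library.

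Of the transcription factors, Sox10 is expressed through the whole lineage. CPM of Sox10 was 69.4, 66.4, 76.1, 68.3 and 48.5 in WT and 70.7, 45.96, 97.7, 63.9 and 52.3 in controls. The treated libraries had 59.3, 68.8, 64.7 and 65.8 CPM with BCI-838, 69.3, 65.7, 63.4, 71.7 and 81.6 CPM with exercise and 28.1, 53.2, 45.5, 114 and 68.4 CPM with both. Sox10 showed the same low and high libraries as Mbp in the group with both treatments. Its means were 65.7 ± 10.3 CPM in WT, 66.1 ± 20.1 in controls, 64.7 ± 4.00 with BCI-838, 70.3 ± 7.05 with exercise and 61.8 ± 32.5 with both (SD, n = 5, or 4 for BCI-838).

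Nkx2-2 encodes a homeodomain factor that promotes differentiation of precursors. Nkx2-2 was at 5.32, 5.15, 4.99, 5.33 and 4.26 CPM in WT and at 5.92, 3.59, 6.87, 5.42 and 3.57 CPM in the controls. It was at 4.82, 5.90, 5.12 and 6.69 CPM with BCI-838, at 6.60, 6.14, 5.52, 6.70 and 5.61 CPM with exercise and at 2.70, 4.38, 3.77, 6.83 and 5.39 CPM with both. All 5 exercise libraries were at or above 5.52 CPM, and 4 of the 5 libraries with both treatments were below that. Nkx2-2 had the smallest unadjusted p of any of the 29 genes for both against exercise: it differed by -0.41 ± 0.20 (log2, SE), with an edgeR p of 0.0537 and an adjusted p of 0.291. It differed by -0.29 ± 0.21 for both against BCI-838 (edgeR adjusted p = 0.572) and by -0.55 ± 0.29 for the interaction (edgeR adjusted p = 0.550). Nkx2-2 shares 9.67% of its exonic length with an antisense gene.

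Nkx6-2 encodes a homeodomain factor of myelinating cells. The WT libraries had 18.7, 18.2, 19.9, 16.2 and 10.1 CPM of Nkx6-2, and the controls 18.1, 10.4, 23.1, 20.4 and 9.82 CPM. Nkx6-2 stood at 14.3, 16.3, 15.9 and 17.4 CPM with BCI-838, 19.6, 20.1, 16.7, 16.4 and 24.3 CPM with exercise and 5.81, 11.6, 8.78, 26.8 and 19.4 CPM with both. The low libraries for Nkx6-2 were again both replicates 1 and 3, control replicates 2 and 5 and WT replicate 5. Nkx6-2 differed by -0.42 ± 0.31 (log2, SE) for both against exercise (edgeR adjusted p = 0.479).

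Olig1 encodes a helix-loop-helix factor of the lineage. CPM of Olig1 was 172, 175, 163, 138 and 129.5 in WT and 171, 111, 192, 142 and 112 in controls. The treated libraries had 134, 136, 145 and 154 CPM with BCI-838, 157, 140.4, 133, 175 and 176 CPM with exercise and 87.8, 120.0, 108, 189 and 154 CPM with both. Olig1 varied less than the myelin genes, 2.19-fold between its lowest and highest library. It differed by -0.15 ± 0.17 (log2, SE) with both treatments (edgeR adjusted p = 0.795) and by -0.24 ± 0.17 for both against exercise (edgeR adjusted p = 0.457). Olig2, its partner factor, spanned 2.04-fold, and Myrf, which drives myelin genes directly, spanned 3.38-fold.

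The precursor surface genes, with Neu4, had the smallest SDs of the 29 genes. Pdgfra encodes the receptor for the growth factor that drives precursor division. Pdgfra was at 59.9, 57.5, 52.03, 56.4 and 52.9 CPM in WT and at 50.5, 52.3, 65.4, 48.02 and 44.4 CPM in the controls. It was at 52.8, 47.5, 55.4 and 59.3 CPM with BCI-838, at 43.98, 37.8, 60.8, 66.6 and 49.8 CPM with exercise and at 38.2, 50.7, 44.4, 53.5 and 60.6 CPM with both. Pdgfra was lowest in exercise replicate 2 and highest in exercise replicate 4, so no group stood apart. It differed by -0.10 ± 0.13 (log2, SE) for genotype (edgeR adjusted p = 1.00), with a 95% interval from -0.38 to 0.18. For both against BCI-838 it differed by -0.12 ± 0.14 (edgeR adjusted p = 0.762).

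Cspg4 encodes the NG2 proteoglycan, which pericytes also carry. The WT libraries had 28.3, 22.98, 26.2, 26.6 and 23.3 CPM of Cspg4, and the controls 26.00, 22.3, 30.4, 19.95 and 21.4 CPM. Cspg4 stood at 24.8, 25.3, 24.4 and 27.2 CPM with BCI-838, 25.6, 23.7, 23.5, 30.5 and 26.01 CPM with exercise and 20.5, 26.2, 20.8, 25.6 and 33.9 CPM with both. Its lowest library was control replicate 4 and its highest both replicate 5. Cspg4 differed by -0.09 ± 0.12 (log2, SE) for genotype (edgeR adjusted p = 1.00), with a 95% interval from -0.34 to 0.17.

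Of the genes of the stages in between, Gpr17 encodes a receptor of committed precursors. CPM of Gpr17 was 36.4, 41.6, 47.4, 42.9 and 41.5 in WT and 39.4, 35.2, 51.3, 34.7 and 38.9 in controls. The treated libraries had 37.5, 41.4, 48.5 and 62.4 CPM with BCI-838, 35.4, 26.4, 35.6, 41.3 and 50.1 CPM with exercise and 35.03, 31.4, 41.2, 64.9 and 46.7 CPM with both. For Gpr17 both replicate 4 and BCI-838 replicate 4 were the 2 highest libraries. Gpr17 differed by 0.25 ± 0.19 (log2, SE) with BCI-838 (edgeR adjusted p = 0.690) and by 0.14 ± 0.18 with both (edgeR adjusted p = 0.83).

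Neu4 encodes a sialidase that is enriched in this lineage. Neu4 was at 9.39, 11.6, 12.9, 10.9 and 10.3 CPM in WT and at 9.36, 8.96, 9.95, 11.5 and 9.79 CPM in the controls. It was at 10.1, 11.4, 10.3 and 13.3 CPM with BCI-838, at 11.3, 11.02, 10.4, 12.9 and 12.6 CPM with exercise and at 8.55, 8.99, 9.52, 13.9 and 12.00 CPM with both. For Neu4, 4 of the 5 controls were at or below 9.95 CPM, and the groups overlapped. Neu4 had the smallest unadjusted p of the 29 genes for genotype, BCI-838 and exercise. It differed by -0.15 ± 0.12 (log2, SE) for genotype (edgeR adjusted p = 1.00), by 0.18 ± 0.13 with BCI-838 (edgeR adjusted p = 0.659) and by 0.23 ± 0.12 with exercise (edgeR adjusted p = 0.965). With both it differed by 0.10 ± 0.12 (edgeR adjusted p = 0.817), and the interaction was -0.32 ± 0.18 (edgeR adjusted p = 0.579).

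Enpp6 encodes a choline phosphodiesterase of newly forming oligodendrocytes. The WT libraries had 7.91, 8.99, 9.45, 7.31 and 5.51 CPM of Enpp6, and the controls 5.66, 4.50, 10.8, 7.27 and 5.39 CPM. Enpp6 stood at 6.02, 9.11, 9.23 and 9.13 CPM with BCI-838, 4.31, 3.58, 6.01, 9.35 and 7.87 CPM with exercise and 1.63, 5.15, 5.67, 14.7 and 8.15 CPM with both. Enpp6 had the widest span of the 29 genes, 9.03-fold between both replicate 1 and both replicate 4. It differed by -0.22 ± 0.38 (log2, SE) for genotype (edgeR adjusted p = 1.00), with a 95% interval from -0.999 to 0.564. Bcas1, which marks early myelinating cells, spanned 4.37-fold.

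The variation of these genes lay between libraries rather than between groups. Both replicate 1 was the lowest of the 24 libraries for 26 of the 29 genes, and both replicate 4 was the highest for 24. Control replicate 3 was among the 3 highest libraries for 26 genes. Both replicate 3 was among the 3 lowest for 19 genes, and control replicate 2 for 18. After the group means were removed, the SD of log2 CPM was 0.52 for Mbp, 0.60 for Mal and 0.66 for Enpp6. It was 0.23 for Pdgfra, 0.20 for Cspg4 and 0.19 for Neu4. The median over the 12264 genes with a mean log2 CPM of at least 2 was 0.17. Of those 12264 genes, 4.23% had a larger SD than Mbp and 29.7% a larger one than Pdgfra.

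**Figure D3:**
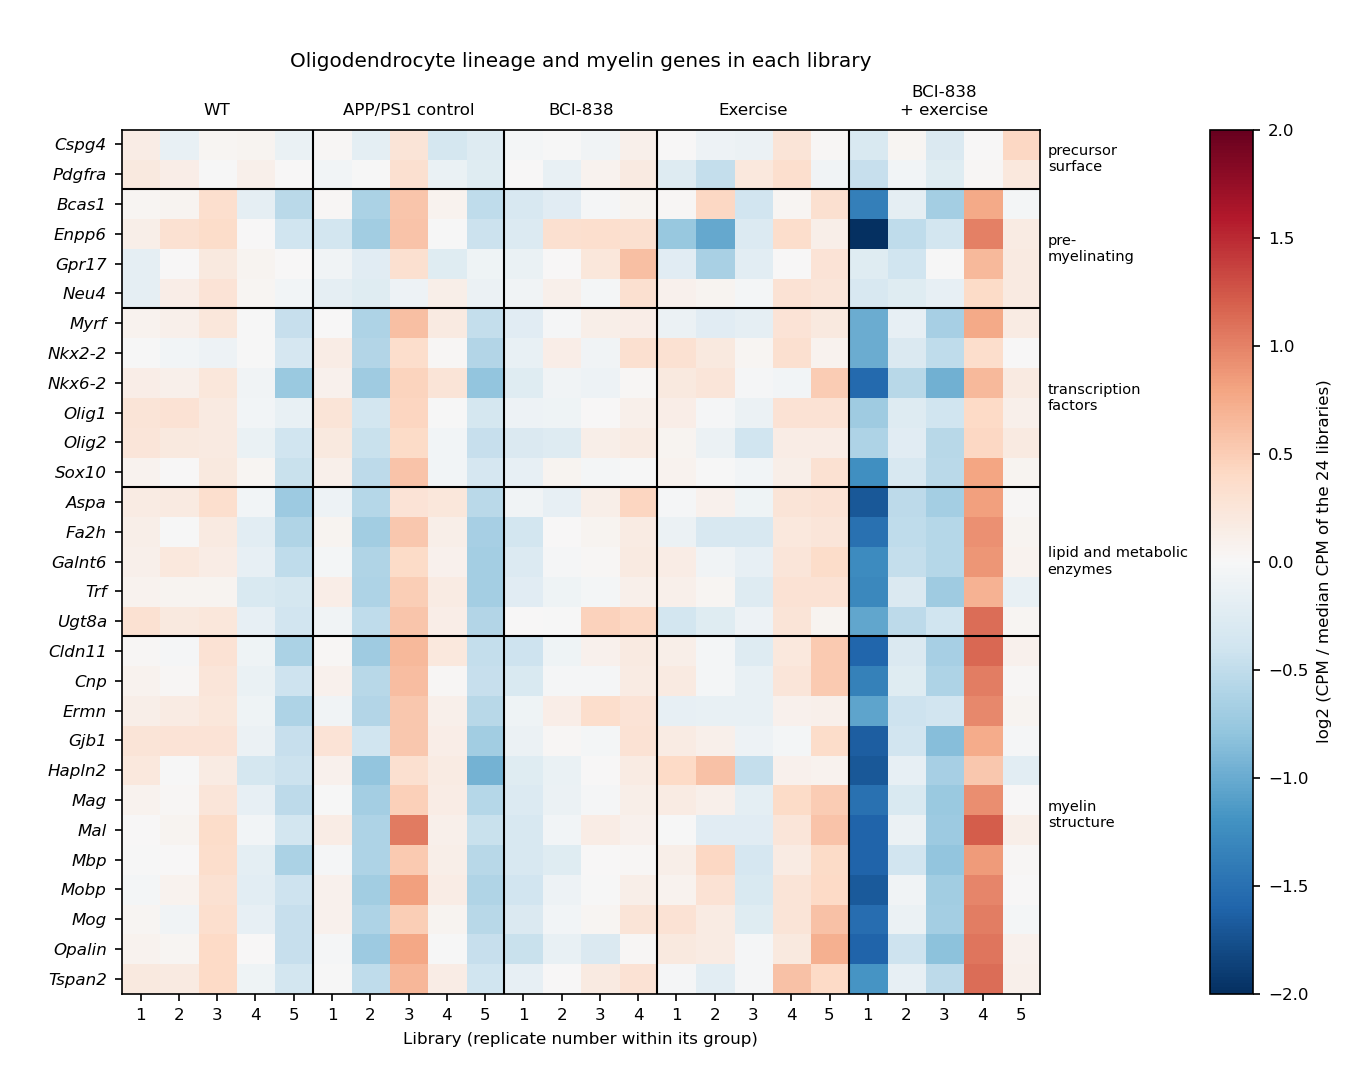
CPM of the 29 genes in each of the 24 libraries, as log2 of the ratio to the gene's median (colour), with libraries grouped left to right and genes grouped by role. The columns of both replicates 1 and 4 stand out as low and high through most rows, while the rows of Cspg4, Pdgfra and Neu4 are pale.

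Since 1 library can decide a median here, the comparisons were repeated without libraries that stand apart. Replicates 1 and 4 of the group with both treatments are named here for their levels in these same genes. Replicate 4 was the highest library for 24 of the 29, so leaving it out lowers the group mean of those genes by construction. The genes also vary together, so the counts below are not evidence of a difference. Without both replicate 4, the median for both against exercise was -0.59, with 28 of 29 genes lower, and 19 of 29 had an unadjusted p under 0.05 beside 19.1% of all genes in that fit, and 0 were called (smallest edgeR adjusted p = 0.136). Without both replicate 4, 3 genes had an unadjusted p under 0.05 for both against control beside 11.3% of all genes, 6 for both against BCI-838 beside 15.8% and 7 for the interaction beside 11.4%, and 0 were called. Without both replicate 1, the median for both against exercise was 0.00, with 15 higher and 14 lower. Without replicates 1 and 4 of the group with both treatments, left out together for their levels after the data were seen, that median was -0.38, with 4 higher and 25 lower, 4 genes had an unadjusted p under 0.05 beside 11.6% of all genes, and 0 were called.

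The genes were then set against Mbp across the 24 libraries, on log2 CPM with a prior count of 2. Of 28 relations, 26 had a Benjamini-Hochberg adjusted permutation p under 0.05 over the 28, and 27 did on residuals from the group means. With p adjusted over all 18285 other genes tested, a setting added after the data were seen, 25 of the 28 genes had a positive relation and 0 a negative one, beside 5.91% of all genes with a positive and 4.87% with a negative relation. The other myelin structure genes had a Pearson r between 0.881 for Ermn and 0.979 for Mag, and a Spearman rho between 0.732 and 0.963. Each Pearson r had a permutation p of 1e-05, the smallest that 100000 resamples can give. Bcas1 was closest to Mbp, with r = 0.990 and rho = 0.950. Without both replicates 1 and 4, the libraries farthest from the median of Mbp, r was still 0.956 for Mag and 0.981 for Bcas1. The transcription factors had r from 0.864 for Olig2 to 0.957 for Nkx6-2, with shallower slopes for the Olig genes: Olig2 moved by 0.52 and Olig1 by 0.50 log2 units per log2 unit of Mbp, against 0.98 for Nkx6-2.

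The precursor surface genes, and Gpr17, Enpp6 and Neu4 of the stages in between, had a lower r with Mbp than the myelin structure genes. Bcas1, of those same stages, did not. Pdgfra had r = 0.383 (permutation p = 0.0637) and rho = 0.232, and r = 0.162 without those libraries. Cspg4 had r = 0.535 (permutation p = 0.00670) and rho = 0.510, and r = 0.499 without them. Gpr17 had r = 0.407 (permutation p = 0.0503) and rho = 0.424, and r = 0.212 without them. Enpp6 had r = 0.737 (permutation p = 0.000220) and rho = 0.587, and r = 0.412 without them, so its relation rests in part on these libraries. Neu4 had r = 0.703 and rho = 0.706, with a slope of 0.27, while the slope of Enpp6 was 0.92. On residuals from the group means r was 0.395 for Pdgfra, 0.557 for Cspg4, 0.559 for Gpr17, 0.824 for Enpp6 and 0.725 for Neu4. All genes of 1 library share its tissue dissection, depth and scaling, and the part of these in the relations was not tested. Differences between these correlations were not tested.

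**Figure D4:**
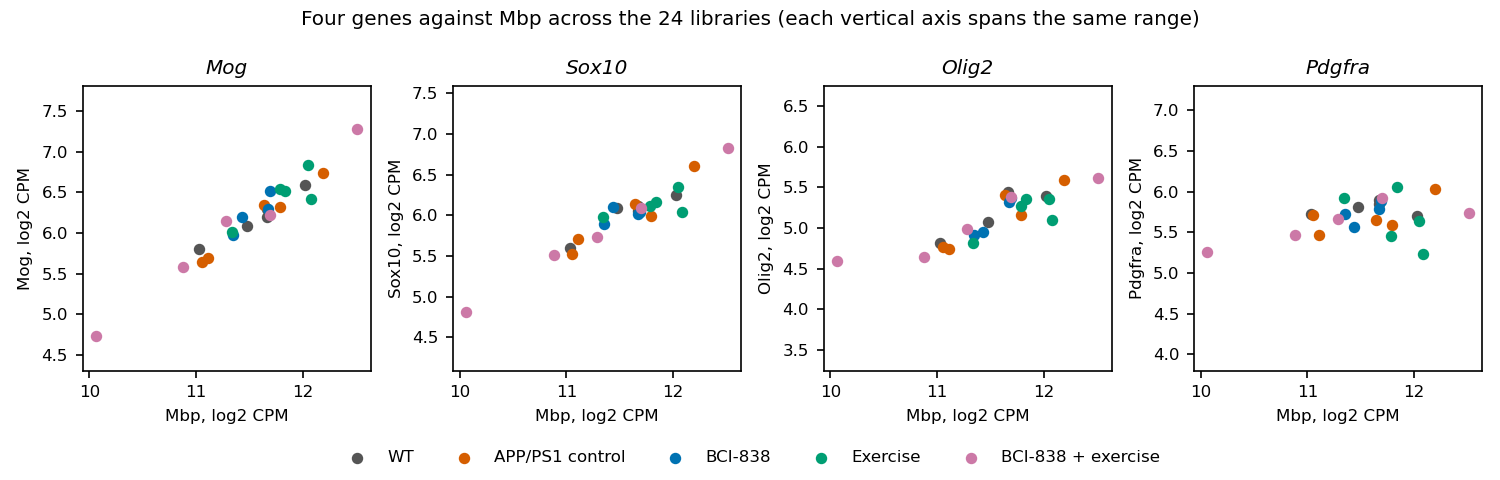
Log2 CPM of Mog, Sox10, Olig2 and Pdgfra against log2 CPM of Mbp in the 24 libraries, coloured by group, with vertical axes of equal length. Mog and Sox10 rise steeply with Mbp, Olig2 rises with a slope of 0.52, and Pdgfra stays nearly level with a slope of 0.16.

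Other genes of the pathway came from 8 lists, and 0 of their 138 genes were called in any comparison by edgeR, in either direction. The smallest adjusted p was that of Ank3, which encodes the ankyrin of the node: it differed by 0.34 ± 0.08 (log2, SE) for both against exercise (edgeR adjusted p = 0.115). Vcan, a matrix proteoglycan of precursors, differed by 0.40 ± 0.10 with both (edgeR adjusted p = 0.269), and Hes5, a Notch target that holds back differentiation, by -0.62 ± 0.16 for both against exercise (edgeR adjusted p = 0.131). Of 40 other genes of mature oligodendrocytes, 39 had a positive relation with Mbp at a permutation p under 0.05 adjusted over all genes tested, with a median r of 0.901. Evi2a was highest at r = 0.989, and Tppp, which encodes a tubulin-binding protein, was lowest at r = 0.161. Of 15 other precursor genes 1 was positive and 1 negative, the negative one being Tnr, which encodes tenascin-R, at r = -0.669. Of 12 sphingolipid genes 5 were positive and 0 negative, with Gal3st1, the enzyme that makes sulfatide, at r = 0.969. Of 20 cholesterol synthesis genes 1 was positive. Of 11 genes of the node and paranode, 2 were positive and 2 negative: Cntn2, an adhesion protein beside the paranode, had r = 0.857 and Kcna1, an axonal potassium channel, r = -0.678. These 138 relations were added after the relations of the 29 genes had been seen.

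The tissue label was compared with marker lists, as mean log2 CPM per library. The granule neuron list (9 genes, with Prox1 and Calb1) ran from 3.95 in WT replicate 3 to 6.87 in control replicate 2, and was 4.85 in both replicate 4 and 4.93 in control replicate 3, the 2 libraries with the highest myelin mean. Both replicate 1, the lowest in myelin, had 6.09. The CA field neuron list (8 genes) ran from 3.87 in WT replicate 2 to 6.86 in both replicate 5, and was 6.46 in both replicate 4 and 6.05 in both replicate 1. The thalamus list (9 genes) ran from 2.54 to 6.53. The dorsal midbrain list (10 genes) ran from -2.60 to 3.14, with -2.56 in both replicate 1 and -2.43 in both replicate 4. Marker levels were not balanced between the groups compared. The dorsal midbrain list was at 2.18 to 3.05 with BCI-838 and at -2.60 to 1.58 with both, without overlap. The thalamus list had a mean of 2.95 with both, against 3.88 with exercise and 4.34 in WT. With the dorsal midbrain list added to the fit, 1.24% of all genes had an unadjusted edgeR p under 0.05 for both against BCI-838. Without it the share was 14.3%. Since these groups do not overlap on the list, that fit separates the list from the group difference poorly. For the 29 genes the median was -0.17 with the list and -0.07 without it. The share over all genes moved from 2.76% to 3.18% for genotype and from 5.44% to 5.98% for exercise. For BCI-838 it fell from 10.2% to 7.14%, for both from 10.6% to 5.51%. It fell from 17.6% to 11.7% for both against exercise and from 9.6% to 2.77% for the interaction. The choroid plexus list (12 genes) was between 2.39 and 4.27 in control replicates 2, 4 and 5 and both replicate 5, and at most 0.83 in the others. The part of tissue composition in the differences between libraries, or between groups, was not tested. Without the 4 libraries that had over 100 CPM of Ttr, a choroid plexus gene, 2 controls remain, and the medians over the 29 genes became 0.31 for genotype, -0.33 for BCI-838, -0.21 for exercise and -0.45 for both, with 0 of 29 called in each.

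**Figure D5:**
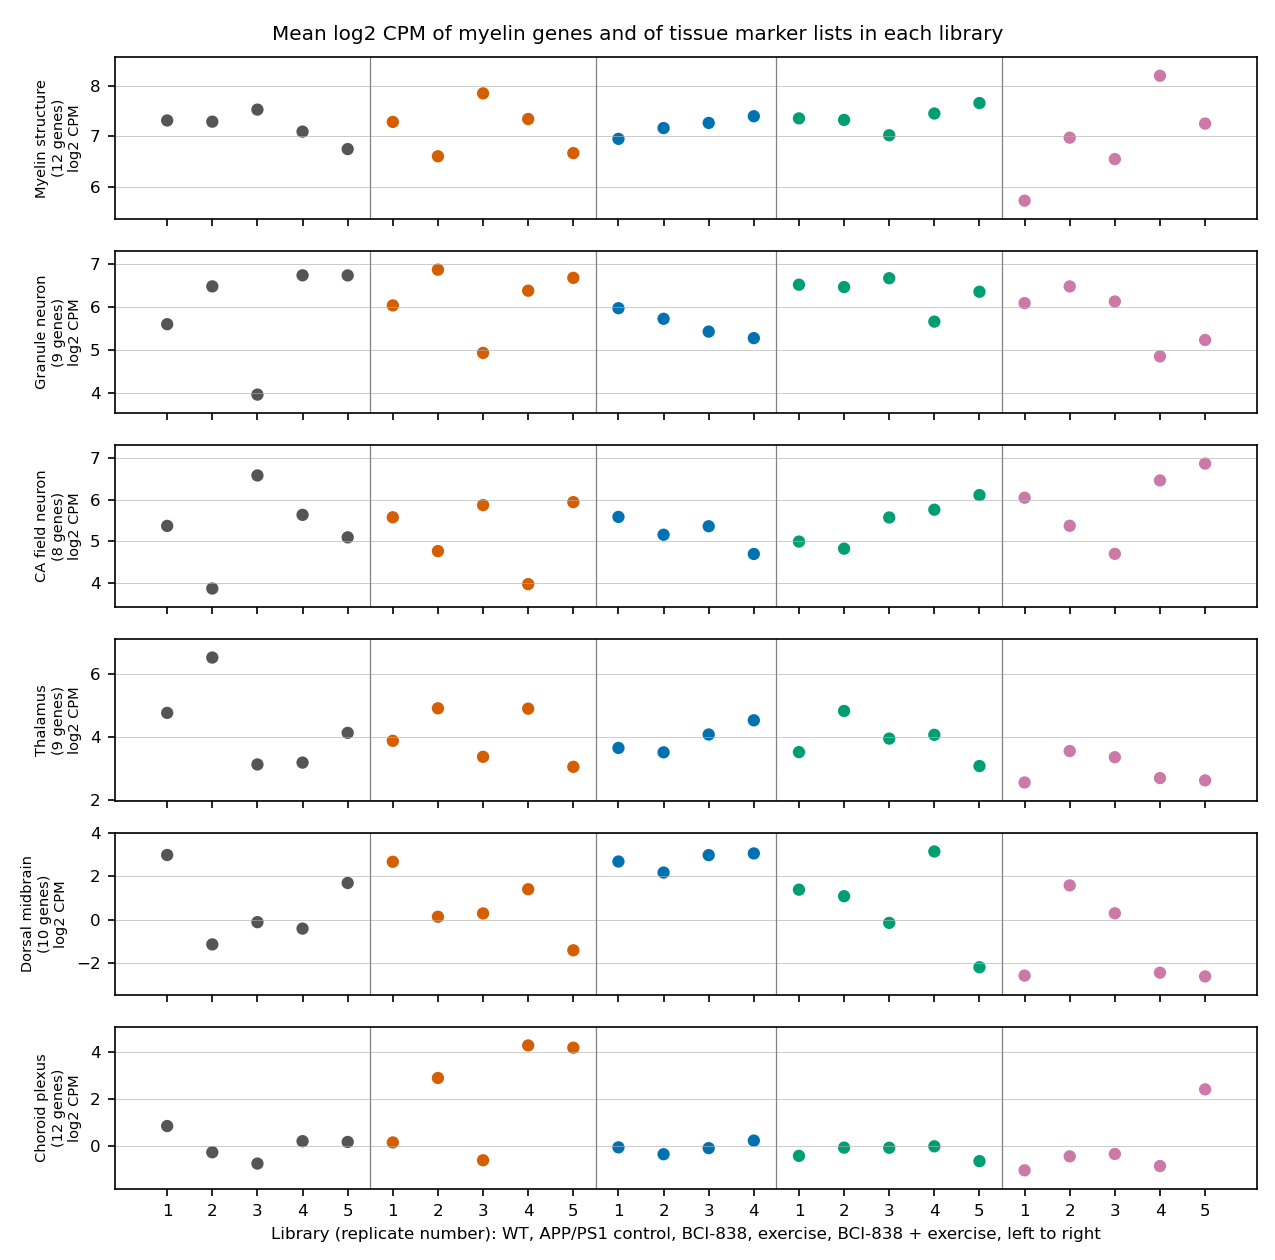
Mean log2 CPM of the 12 myelin structure genes and of 5 tissue marker lists in each library, with groups separated by vertical lines and coloured. Both replicate 4 and control replicate 3 are high for myelin and low for granule neuron genes. WT replicate 3 is the lowest for granule neuron genes, and the relation between these 2 lists was not tested. Choroid plexus genes are high in control replicates 2, 4 and 5 and both replicate 5.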

How the data were processed

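RNA was sequenced from the dentate gyrus of 24 mice. The authors deposited whole-number read counts per gene, made with STAR and HTSeq on build mm10, per the submitters' processing notes, which also name DESeq. The sources used here give no versions, read layout or strand. A second, normalised table was not used. Library totals of the deposited counts ran from 48656360 to 64632882, and no 2 libraries agreed within sampling noise. Columns were matched to samples by their labels.

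Counts of 18286 genes kept by filterByExpr (minimum count 10, minimum total 15) were scaled with TMM and fitted in 1 model over all 24 libraries with edgeR 4.0.16 (robust quasi-likelihood) in R 4.3.3; Benjamini-Hochberg adjustment ran over all genes. The fit was also run on simulated counts in which each gene varied on its own. That run says nothing about genes that vary together, as the 29 genes here did. Relations with Mbp used two-sided permutation tests with 100000 resamples. The 29 genes, the lists and the tests were chosen with earlier results of these data known. Values in every library are printed for the stage markers and for the 4 genes with the smallest p in each comparison. Alternatives were DESeq size factors, other filters, DESeq2 1.42.0, limma voom with quality weights (limma 3.58.1), the replicate number as a block, dorsal midbrain or thalamus covariates, the compared libraries alone, leaving out libraries over 100 CPM of Ttr, and leaving out each library. Leaving out both replicates 1 and 4 together, and the relations with Mbp of the pathway genes and of all genes tested, were added after seeing the data. Gene positions are from GENCODE M21 on GRCm38.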

Additional observations from a re-analysis of the deposited data

Results flagged for a closer look

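Of 145 groups of 4 or 5 libraries examined, 3 held a value far from the others of its group, and chance alone gives about 1 in 20. Opalin, a membrane protein of mature oligodendrocytes, was at 54.9 CPM in exercise replicate 5, while the next highest exercise library had 38.8 CPM. Gpr17 was at 51.3 CPM in control replicate 3, above a next highest control of 39.4 CPM. Enpp6 was at 6.02 CPM in BCI-838 replicate 1, while the other 3 libraries of that group lay between 9.11 and 9.23 CPM.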

How the results depend on the processing

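In all 154 alternative fits over the 7 comparisons, 0 of the 29 genes were called. Over all genes tested, these fits called from 0 to 989. At an adjusted permutation p under 0.05, 26 or 27 of 28 genes were related to Mbp under each alternative for that count. The medians did move: over all alternatives they ran from -0.18 to 0.31 for genotype, -0.33 to 0.21 for BCI-838, -0.21 to 0.31 for exercise, -0.45 to 0.13 for both, -0.59 to 0.00 for both against exercise, -0.45 to 0.07 for both against BCI-838 and -0.68 to 0.11 for the interaction, so no direction of these medians is firm. The cause of these shifts was not tested. Small differences changed sign, on the log2 scale. For genotype, Mbp was -0.0147 with limma voom, -0.0097 with the replicate block and -0.0035 with the thalamus covariate, and -0.17 to 0.14 when 1 library was left out. Without the libraries over 100 CPM of Ttr, the genotype difference was 0.0568 for Pdgfra, 0.146 for Cspg4 and 0.0754 for Enpp6. The same alternative gave -0.0427 for Ugt8a and -0.0909 for Ermn with BCI-838. With exercise it gave -0.0655 for Nkx2-2, -0.0337 for Hapln2, -0.0373 for Mag and -0.101 for Mbp, with both -0.0725 for Gpr17, and for the interaction 0.0206 for Mbp. Mbp with BCI-838 was 0.15 with limma voom. Gpr17 with both was -0.0053 without both replicates 1 and 4.

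When 1 library was left out at a time, Mbp ran from -0.19 to 0.10 with BCI-838, from -0.52 to 0.10 with both and from -0.45 to 0.18 for both against BCI-838. In the same way Gpr17 with both ran from -0.0489 to 0.233, and Neu4 with both from -0.0213 to 0.156.

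The replicate numbers gave no clear pairing of the libraries. Of 46 same-numbered pairs, 10 had a correlation of residuals over 0.1 (range -0.38 to 0.40). In 9 of the 46 pairs, the same-numbered library was the best match among the 4 or 5 libraries of the other group. With the replicate block 0 of 29 genes were called in each comparison, with medians of -0.05 for genotype and -0.25 for both against exercise. The lowest library total was 48656360 counts, and the median standard error of the 29 genes was 0.30 for genotype beside 0.15 over all genes.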

Other observations

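Exercise replicate 2, chosen after its values were seen, departed from the common pattern of the 29 genes. Relative to the median of the 24 libraries it was high for Hapln2 (1.51 times), Bcas1 (1.33 times) and Mbp (1.33 times). It was low for Enpp6 (0.491 times), Gpr17 (0.639 times) and Pdgfra (0.718 times). The genes of a stage did not go together in this library: Bcas1 is grouped with Enpp6, Gpr17 and Neu4, which was at 1.04 times, the precursor gene Cspg4 was at 0.932 times, and the myelin structure genes ran from 0.854 times for Mal to 1.51 times for Hapln2. Its mean log2 CPM was 4.82 for the thalamus list, against 3.07 to 4.06 in the other exercise libraries, and the part of this in the pattern was not tested.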
